A study of Mus musculus with 6 samples.

Results

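The interferon-inducible GTPases examined here were 10 genes, chosen by symbol from the 23420 genes of the count table: Gbp2, Gbp3, Gbp4, Gbp5, Gbp6 and Gbp7 of the guanylate-binding proteins (GBPs), and Igtp, Irgm1, Irgm2 and Iigp1 of the immunity-related GTPases (IRGs). Each symbol matched 1 row of the table. RNA of whole mouse retinas was sequenced in 6 libraries, 2 per group. Control mice received no treatment. Light-exposed mice received 10000 lux for 1 h and were analyzed at day 4, and the remaining mice received the same light together with minocycline, a tetracycline antibiotic, at 45 mg/kg on each of 4 days. The labels name the strain CD1, whereas the study's methods describe BALB/cJ mice, both albino, together with a brighter light and a longer treatment, and these differences could not be resolved here. The study describes the samples of a group as biological replicates. The age of the mice is not given in the labels. The minocycline columns carry the same heading, so these libraries are called minocycline A and minocycline B.

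GBPs and IRGs are GTPases that vertebrate cells make in quantity after exposure to interferon, above all interferon gamma. They assemble on membranes, in particular on vacuoles that hold intracellular pathogens, and take part in vacuole disruption, autophagy-related processes and inflammasome activation. The IRGs fall into a regulatory class, which includes Irgm1, Irgm2 and Igtp (also called Irgm3) and protects the cell's own membranes, and an effector class, which includes Iigp1. In nervous tissue, including the retina, they are best known as part of interferon responses.

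Interferon reaches such genes through 2 kinds of DNA element, the interferon-stimulated response element, bound by IRF factors and the ISGF3 complex, and the gamma-activated site, used mainly by interferon gamma. For 7 of the 10 genes, 8 promoters were found among RefSeq promoters of GRCm38.p6, since Gbp3 has 2 annotated starts, and those of 5 genes are printed here as examples, 3 (Gbp7, Igtp and Irgm2) of both elements in 1 promoter and the other 2 (Gbp2 and Irgm1) of the response element alone. Each line holds the 200 bases before the annotated start, 5′ to 3′ on the strand of the gene. Capitals mark matches, on either strand, to the core of the response element, which is GAAA, any 2 bases and GAAA again, or to the core of the gamma-activated site, TTCNNNGAA, where N is any base. Overlapping matches form 1 run of capitals.
Gbp2, chr3:142620463-142620662, plus strand: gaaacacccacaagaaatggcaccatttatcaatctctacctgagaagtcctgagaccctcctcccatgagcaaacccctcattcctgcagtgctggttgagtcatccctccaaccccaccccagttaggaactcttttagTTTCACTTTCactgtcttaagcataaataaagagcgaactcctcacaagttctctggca
Gbp7, chr3:142530136-142530335, plus strand: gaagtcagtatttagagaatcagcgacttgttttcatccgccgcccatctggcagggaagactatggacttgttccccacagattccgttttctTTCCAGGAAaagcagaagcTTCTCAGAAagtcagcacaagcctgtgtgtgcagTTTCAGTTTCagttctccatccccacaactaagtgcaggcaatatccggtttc
Igtp, chr11:58199356-58199555, plus strand: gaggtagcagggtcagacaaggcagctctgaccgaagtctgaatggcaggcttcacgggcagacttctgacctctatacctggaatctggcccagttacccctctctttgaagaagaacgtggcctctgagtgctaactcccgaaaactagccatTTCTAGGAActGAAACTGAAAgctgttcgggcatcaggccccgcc
Irgm2, chr11:58214777-58214976, plus strand: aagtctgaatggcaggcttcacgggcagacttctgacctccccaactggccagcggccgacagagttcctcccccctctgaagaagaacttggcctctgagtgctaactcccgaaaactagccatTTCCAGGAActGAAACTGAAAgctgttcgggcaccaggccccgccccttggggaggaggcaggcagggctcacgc
Irgm1, chr11:48871421-48871620, minus strand: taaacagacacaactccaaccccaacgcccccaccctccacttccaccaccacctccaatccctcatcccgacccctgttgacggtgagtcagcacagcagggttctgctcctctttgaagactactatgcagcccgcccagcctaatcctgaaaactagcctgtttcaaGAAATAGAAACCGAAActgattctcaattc

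A response-element core was present in 7 of the 8 promoters examined over the whole RefSeq region (250 bases before to 50 bases after the start), whereas 3.44% of all 32851 RefSeq promoters of that length held one. The promoter without one was that of the second start of Gbp3, so that each of the 7 genes had a match at 1 start. TTCNNNGAA occurred in 4 of 8 promoters, those of Gbp5, Gbp7, Igtp and Irgm2, and in 8.30% of all promoters. The same 4 promoters held both, as did 0.454% of all promoters. In Igtp and Irgm2 the gamma-activated core ended 2 bases before the response-element core. These 2 windows are copies of one another over part of their length, with a longest identical run of 40 bases, so that they are not independent examples. The promoter of Irgm1 held 2 overlapping response-element cores within 30 bases of the start. The promoter of Gbp2 held 1 response-element core and no match to TTCNNNGAA. A match is a run of letters and does not show that a factor was bound in these retinas.

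**Figure D1:**
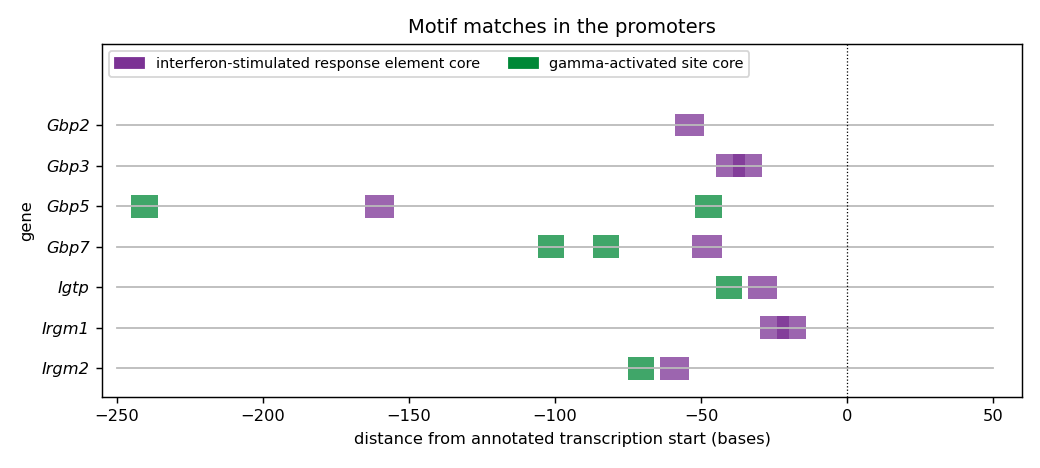
Positions of motif matches in the RefSeq promoters of 7 GTPase genes, of which Gbp3 is drawn for the first of its 2 starts only, with distance from the annotated transcription start in bases on the horizontal axis and 1 gene per row. Purple blocks are matches to the response-element core and green blocks to the gamma-activated core; each of the 7 promoters drawn holds a purple block, and 4 also a green one, whereas the second Gbp3 start, not drawn, holds neither.

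Libraries held 15205930 to 22856922 counts. Levels are given as CPM, the count scaled by a library size that was adjusted by the trimmed mean of M values (TMM), and 3 counts, the limit that a count of 0 allows, corresponded to 0.131 to 0.213 CPM. This limit covers counting error only. Control 1 stood apart in Xist, a transcript of female cells, with 77778 counts, against at most 188 in any other library. Light 2 stood above light 1 in leukocyte transcripts: the summed level of 12 microglia markers was 61.3 and 69.2 CPM in the controls, 456 and 1434 CPM in light 1 and light 2, and 121 and 58.2 CPM in minocycline A and B. The tissue label was met by its markers, since the 8 rod genes summed to 72852 to 92431 CPM in controls, 38639 to 54588 CPM after light and 79311 to 85250 CPM with minocycline. The 8 corneal epithelium markers summed to 2.18 to 16.1 CPM in the 4 libraries without minocycline and to 201 and 291 CPM in minocycline A and B. Of 13 T and NK cell markers, 11 had at most 3 counts in each library, and 4 (Cd3e, Ncr1, Gzmb and Prf1) were at 0 in all 6. In bulk retina, fewer cells of a type and less RNA per cell cannot be told apart.

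Light exposure versus control addressed which transcripts of the GTPases differed in the light-damaged retina. Of the 10 genes, 8 rose in the quasi-likelihood test of edgeR (adjusted p under 0.05), and 7 of these also met the study's cutoff of a log2 fold change of at least 2. The study set that cutoff on DESeq2 values. In DESeq2 here, 6 of the 10 passed with it without shrunken fold changes and 0 with them (2.54% and 0.4% of the fitted genes). Over all 14349 genes tested in edgeR, 7.52% passed in the higher direction, and 2.89% passed with the cutoff. The median log2 fold change of the 10 genes was 2.40, against 0.0025 over all tested genes. Both light libraries lay above both controls for 10 of 10 genes, as they did for 30.6% of all tested genes. Gbp5 and Iigp1 passed the filter on low counts through the light libraries alone, and without them 6 of the remaining 8 passed, 5 with the cutoff. The number that passed changed with the libraries used. Without control 1 or without control 2, 0 of the 10 passed, and the share of all tested genes called higher was 0.0269% and 0.135%. Without light 2, 4 of the 9 tested passed (3.05% of all tested genes), whereas without light 1 all 10 passed (11.4% of all). The median log2 fold change was 1.72 to 2.79 over these 4 fits, with each tested GTPase positive.

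The GBPs of chromosome 3 form a single gene cluster, in which GENCODE M21 (GRCm38) places Gbp5 at chr3:142493978-142522344, Gbp7 at chr3:142530342-142550149, Gbp3 at chr3:142560026-142573209 and Gbp2 at chr3:142620602-142638008. Gbp2, which carries a lipid anchor signal and binds vacuole membranes, measured 3.06 and 2.61 CPM in control 1 and 2 and 10.8 and 20.2 CPM in light 1 and 2. Its log2 fold change was 2.46 ± 0.35 (SE, n = 2 per group), a 5.50-fold rise with an adjusted p of 0.00806. Gbp3, its neighbor, measured 2.99 and 2.04 CPM in the controls and 10.1 and 22.9 CPM after light. This was a rise of 2.72 ± 0.43 on the log2 scale (adjusted p = 0.0132), the largest among the 6 GBPs. In both genes the lower light library was more than the higher control by a wider margin than that between the controls.

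Gbp7, linked to NADPH oxidase assembly and autophagy, was the GBP with the highest CPM in the controls, at 5.47 and 4.37 CPM, and reached 9.99 and 20.6 CPM after light. Its rise of 1.64 ± 0.36 on the log2 scale (adjusted p = 0.0231) was below the fold cutoff, so it passed on the test alone. Gbp5, described as a promoter of inflammasome assembly, was scarce, with 9 and 8 counts in the controls and 29 and 79 counts after light. It rose by 2.18 ± 0.52 on the log2 scale (adjusted p = 0.0262), with neither control at the level the filter asks for, so that it entered the test through the libraries in which it was high. The 2 genes thus differed in abundance, and neither had overlapping groups.

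Gbp4 (chr5:105115767-105139586) and Gbp6 (chr5:105270702-105293698) lie in the GBP cluster of chromosome 5, on the minus strand. Gbp4 measured 2.20 and 0.986 CPM in the controls and 3.33 and 8.83 CPM in the light libraries. The higher control stood close to the lower light library, and its log2 fold change of 1.94 ± 0.56 did not pass (adjusted p = 0.0584). Gbp6 measured 0.711 and 0.986 CPM in the controls and 2.80 and 7.22 CPM after light, a rise of 2.56 ± 0.53 on the log2 scale (adjusted p = 0.0196). The value of Gbp6 is uncertain as to its source, because 70.7% of the 50-base stretches of its GENCODE M21 transcripts also occur in another gene, 65.0% in Gm43302 and 45.9% in Gbp10. For the other 9 genes this share was 0.31% to 12.7%. How reads with several matches were counted is not given in the sources used here.

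Among the IRGs, Irgm1 (chr11:48861968-48871683), a regulator that keeps effector IRGs inactive on the cell's own membranes, measured 2.20 and 1.69 CPM in the controls and 8.995 and 18.9 CPM after light. It rose by 2.85 ± 0.41 on the log2 scale, 7.20-fold, with an adjusted p of 0.0086. Igtp, another regulatory IRG, found on endoplasmic reticulum and lipid droplets, went from 1.63 and 1.13 CPM to 4.61 and 9.26 CPM. This corresponded to a rise of 2.33 ± 0.44 on the log2 scale (adjusted p = 0.0141). Both genes had non-overlapping groups.

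Irgm2, the remaining regulatory IRG, had 22 and 6 counts in control 1 and 2, a larger ratio than that between the light libraries at 46 and 111 counts. Its log2 fold change was 2.01 ± 0.58 and did not pass (adjusted p = 0.055). Irgm2 (chr11:58199618-58222782) and Igtp (chr11:58199556-58207591) overlap in GENCODE M21 and share sequence, with 11.8% of the 50-base stretches of Igtp found in Irgm2, so reads can be split between them. Iigp1, the effector GTPase that is loaded onto pathogen vacuoles, had 2 and 0 counts in the controls and 11 and 26 counts in the light libraries. Its pooled ratio of light to control was 13.7, with a 95% counting interval of 3.53 to 117, and its adjusted p was 0.0283. DESeq2 did not call it (adjusted p = 0.107). The median of the 10 genes was 2.26 with Iigp1 at the lower end of this interval and 2.33 without Iigp1.

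**Figure D2:**
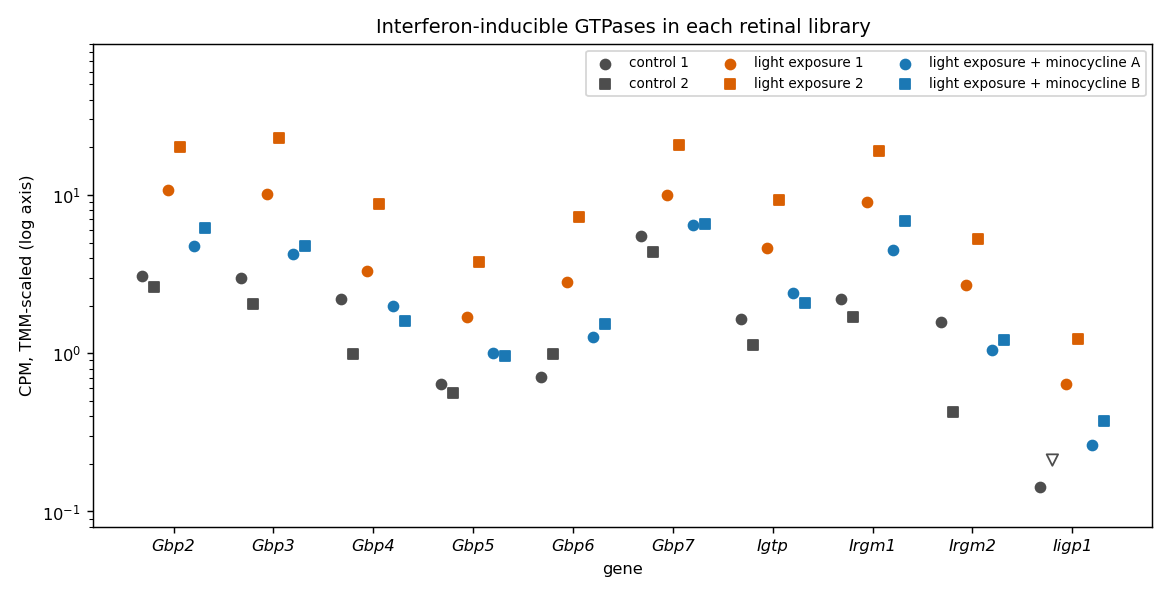
Level of each GTPase gene in each of the 6 libraries, as TMM-scaled CPM on a log axis, with 1 symbol per library and the groups in gray (control), orange (light exposure) and blue (light exposure plus minocycline). The open triangle marks Iigp1 in control 2, which had 0 counts, at the level of 3 counts; both orange symbols lie above both gray ones for each gene, and light exposure 2 above light exposure 1.

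Light 2 exceeded light 1 for 10 of 10 genes. The ratio ran from 1.87 for Gbp2 to 2.65 for Gbp4, with a median of 2.08. The 12 microglia markers differed between the same libraries by a median ratio of 3.02, from 1.98 for P2ry12 to 4.20 for Trem2. The rod list moved in the opposite direction, from 54588 CPM in light 1 to 38639 CPM in light 2. The part of cell composition in the GTPase values was not tested. When libraries were scaled by their total counts, the median over all genes shifted to 0.24 on the log2 scale and that of the 10 GTPases to 2.64, with 10 of 10 passing, as did 13.5% of all tested genes in the higher direction.

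Related GTPases were examined through a list of 16 genes, of which 14 had a row in the table, 6 were tested and 5 rose after light. Their median log2 fold change was 2.41. Gbp1, which is called Gbp2b in RefSeq and sits in the chromosome 3 cluster, had 47 and 37 counts in the controls and 188 and 484 after light, a rise of 2.52 ± 0.38 on the log2 scale (adjusted p = 0.0101). Gbp9 rose by 2.41 ± 0.47 (adjusted p = 0.0174) and Gbp10 by 2.07 ± 0.49 (adjusted p = 0.0261). Gbp11 had 1 and 0 counts in the controls and 11 and 45 after light, a pooled ratio of 41.5 with a 95% counting interval of 7.14 to 1666 (adjusted p = 0.0210), and passed the filter on low counts through the light libraries alone. Gbp10 is uncertain as to its source, with 84.1% of its 50-base stretches found in other genes and 73.3% in Gbp6, so that Gbp6 and Gbp10 are not independent. All of these are GBPs of the same 2 clusters.

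Mx2, a dynamin-like antiviral GTPase that responds mainly to type I interferon, rose by 2.41 ± 0.45 on the log2 scale (adjusted p = 0.0140). Its homolog Mx1 had 1 and 2 counts in the controls and 10 and 62 after light and was not tested. The IRG Gm12250 had 13 and 5 counts in the controls and 5 and 30 after light, so that the groups overlapped, and its log2 fold change was 0.47 ± 0.75 (adjusted p = 0.72). The IRG Ifi47 had 9 and 3 counts in the controls, 9 and 44 after light, and was not tested. Gbp8 had 1 count in each control and 9 and 15 after light. The IRGs Tgtp1, Tgtp2, Gm4951 and F830016B08Rik had at most 6 counts in any library, and the very large GTPase Gvin1 was listed at 0 in all 6. The values of Tgtp1, Tgtp2 and Gvin1 are uncertain, because 81.2%, 86.6% and 99.2% of their 50-base stretches also occur in other genes. Gbp2b and Iigp1b are not symbols of the table.

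The interferon ligands listed, Ifng and Ifnb1, were at or near 0, and other ligands were not examined. Ifng, encoding interferon gamma, had 0 counts in all 6 libraries, and Ifnb1, encoding interferon beta, had 1 count in each light library and 0 in the others. Transcripts of the receptor chains differed in behavior. Ifnar2, a chain of the type I receptor, rose from 2.42 and 2.46 CPM to 8.002 and 14.3 CPM, by 2.20 ± 0.35 on the log2 scale (adjusted p = 0.0101), and Ifngr2, a chain of the interferon gamma receptor, rose by 0.89 ± 0.24 (adjusted p = 0.0383), a call lost with all 6 libraries in one fit (adjusted p = 0.0652). The partner chains had log2 fold changes of 0.0055 ± 0.17 for Ifngr1 and 0.016 ± 0.15 for Ifnar1, which did not pass.

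Of the 17 genes of the list of interferon ligands, receptors and signalling, 15 were tested and 5 rose after light, with a median log2 fold change of 0.42. Without Socs1, which did not pass the test and passed the filter through the light libraries alone, the median was 0.22. Besides both receptor chains these were 3 IRF transcription factors. Irf1, which binds response elements downstream of interferon gamma, had 41 and 37 counts in the controls and 133 and 239 after light, a rise of 1.80 ± 0.33 (adjusted p = 0.0132). Irf7, of the type I response, rose by 1.22 ± 0.23 (adjusted p = 0.0156). Irf8, a factor of the myeloid lineage that microglia require, rose by 3.39 ± 0.59 (adjusted p = 0.0197).

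Other targets of interferon gamma numbered 11, of which 6 were tested and 5 rose, with a median of 3.13. They act in antigen presentation and immune inhibition. The immunoproteasome subunits Psmb8 and Psmb9 rose by 3.28 ± 0.44 and 3.12 ± 0.49 on the log2 scale, and Nlrc5, the transactivator of MHC class I genes, by 3.15 ± 0.53. The peptide transporter Tap1 rose by 2.11 ± 0.27 (adjusted p = 0.0062) and Cd274, encoding PD-L1, by 1.63 ± 0.40. B2m, the light chain of MHC class I, was at 3.42 ± 0.62 without passing (adjusted p = 0.0647). Targets often used as readouts of interferon gamma were scarce: Cxcl10 had 6 and 1 counts in the controls, 10 and 36 after light and 1 and 0 with minocycline, Ciita had 4 counts in each light library and 0 elsewhere, Cxcl9 had 1 count in light 2 and 0 elsewhere, and Ido1 was listed at 0 in all 6.

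Of 10 genes of ATG8 conjugation, the ubiquitin-like system that places GBPs and IRGs on target membranes, 1 rose, Gabarap (0.95 ± 0.19 on the log2 scale, adjusted p = 0.0173), with a median of -0.0091 over the list. Of 8 cytosolic inflammasome genes, which act downstream of GBPs, 6 were tested and 5 rose, with a median of 3.01. Aim2, Casp1, Casp4 and Pycard among these passed the filter on low counts through the light libraries alone, so that their calls and the median are no measure of the list, and 1 of the other 2 tested genes rose. This was Gsdmd, the pore-forming protein cleaved by inflammatory caspases, at 2.23 ± 0.51. Aim2, a DNA sensor, went from 6 and 9 counts to 34 and 110. Casp1 went from 0 and 2 counts to 29 and 77, Casp4, not called by DESeq2 (adjusted p = 0.0979), from 2 and 1 to 11 and 31, and the adaptor Pycard from 1 in each control to 29 and 74. Il18 was at 0.51 ± 0.29 and did not pass (adjusted p = 0.282), and Nlrp3 and Il1b had at most 19 counts in any library and were not tested. The microglia list had a median of 3.87, with 5 of 12 passing, against 7.52% of all tested genes. Among these, Fcrls had 3 counts in each control and passed the filter on low counts through the light libraries alone. Which cells carried the interferon-pathway transcripts was not tested.

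**Figure D3:**
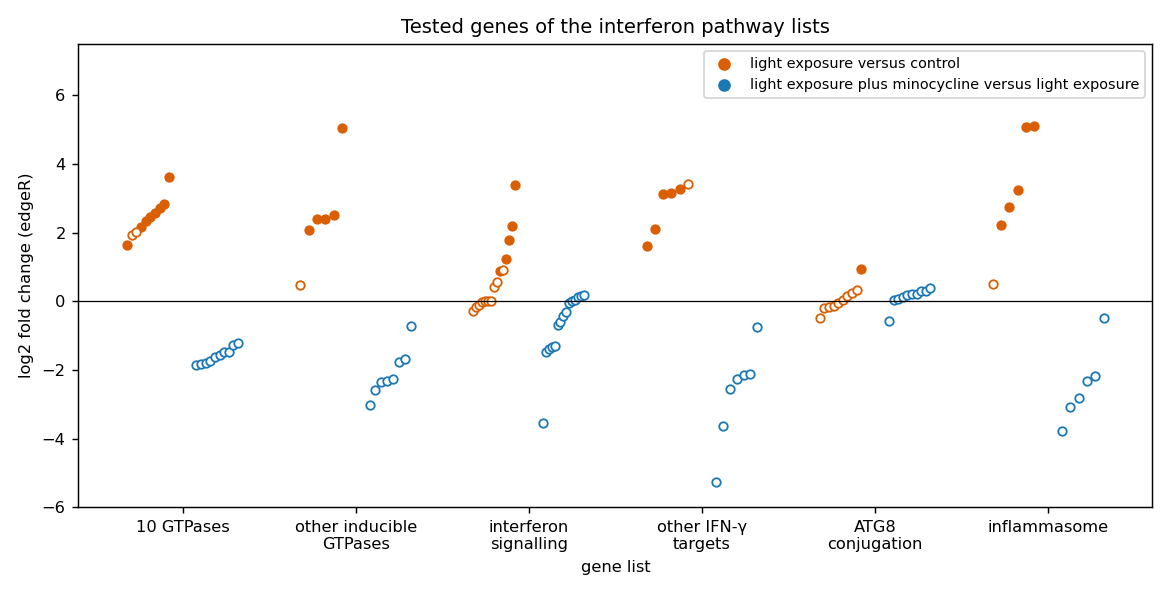
Log2 fold change of each tested gene of 6 lists, for light exposure versus control (orange) and light exposure plus minocycline versus light exposure (blue), with filled symbols for an adjusted p under 0.05 and open symbols otherwise. After light 8 of the 10 GTPases are filled and the ATG8 list lies around 0; no blue symbol is filled. Fitted values of genes at 3 counts or fewer in the controls, such as Iigp1 and Gbp11, depend on the prior count.

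Light exposure plus minocycline versus light exposure addressed whether the GTPase transcripts differed with the drug. None of the 10 passed at an adjusted p under 0.05 in edgeR, in a comparison in which 0.0407% of 14750 tested genes passed in the lower direction. At an unadjusted p under 0.05, 10 of 10 were lower, against 12.1% of all tested genes. The median log2 fold change was -1.59, or -1.62 over the 9 genes without Iigp1, which passed the filter on low counts through the light libraries alone, against 0.0062 over all genes, and both minocycline libraries lay below both light libraries for 10 of 10, as for 28.7% of all genes. The median of the 10 was -0.99 without light 2, -2.0003 without light 1 and -0.90 with shrunken DESeq2 fold changes. The number that passed differed between settings. In edgeR, dropping the filter and fitting all 6 libraries each changed it, whereas what sets DESeq2 apart was not separated. DESeq2 was fitted to 18453 genes without the filter used in edgeR, but with its own default filtering of low counts. It called 8 of the 10 lower, as it did 3.99% of the fitted genes. With all 6 libraries in one fit edgeR called 2 (2.4% of all), and without a filter on low counts edgeR called 4 (2.63% of all). Without light 1, edgeR called 8 of the 10 lower (4.64% of all), and without light 2, minocycline A or minocycline B it called 0.

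Gbp3 measured 4.27 and 4.77 CPM in minocycline A and B, below the 10.1 CPM of light 1. Its log2 fold change of -1.85 ± 0.40 was the lowest of the 10 (adjusted p = 0.0844). Gbp2 was at 4.79 and 6.20 CPM with minocycline, a log2 fold change of -1.48 ± 0.35 (adjusted p = 0.0885). Gbp7 had the value nearest to 0, with 6.44 and 6.52 CPM and a log2 fold change of -1.22 ± 0.35 (adjusted p = 0.125). Among the scarcer GBPs, the log2 fold change was -1.74 ± 0.50 for Gbp4, -1.46 ± 0.48 for Gbp5 and -1.83 ± 0.51 for Gbp6, with adjusted p values from 0.117 to 0.151. The 6 GBPs thus ranged from -1.85 to -1.22, with standard errors of 0.35 to 0.51 for the single genes.

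Irgm1 measured 4.48 CPM in minocycline A and 6.89 CPM in minocycline B, against 8.995 CPM in light 1, with a log2 fold change of -1.28 ± 0.41 (adjusted p = 0.15). Igtp was at 2.39 and 2.07 CPM and -1.62 ± 0.41 (adjusted p = 0.0942). Irgm2 measured 1.04 and 1.22 CPM, between the 2 controls at 1.56 and 0.423 CPM, with a log2 fold change of -1.80 ± 0.45 (adjusted p = 0.0933). Iigp1 had 6 and 7 counts, with -1.57 ± 0.56 (adjusted p = 0.176), and entered the test through the light libraries alone. Each IRG was thus lower in both minocycline libraries without passing the adjusted test.

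Pathway genes in the same comparison gave 0 passing genes in each of the other 5 lists. Medians were -2.30 for the other GTPases, -0.42 for ligands, receptors and signalling, -2.26 for the other interferon gamma targets, 0.21 for ATG8 conjugation and -2.58 for inflammasome genes. Unadjusted p values under 0.05 in the lower direction were found for 7 of 8, 8 of 15, 6 of 7, 1 of 10 and 5 of 6 tested genes, against 12.1% of all tested genes. Of the 6 inflammasome genes, Casp1 and Casp4 passed the filter through the light libraries alone, and Aim2 and Pycard reached its level in 1 of the 2 minocycline libraries, so that this count and median are no measure of that list. Gbp8, Gbp11 and Mx1 among the other GTPases also passed it through the light libraries alone, and the median of that list was -1.76 without them. Likewise, the medians were -0.37 for signalling without Socs1 and -2.20 for the other targets without Cxcl10. Gbp8, Gbp11, Mx1, Socs1 and Cxcl10 are each in the count of their list at an unadjusted p under 0.05. Those counts are thus no measure of their lists either. Nlrc5 and Irf8 had the values -3.63 ± 0.51 and -3.56 ± 0.60 (adjusted p = 0.0691 and 0.0698). Other settings called more of these 5 lists lower: edgeR 18 of 57 with no filter on low counts, 13 of 46 with all 6 libraries in one fit and 19 of 49 without light 1, and DESeq2, also with no filter, 17 of 57, among them Nlrc5 (adjusted p = 8.93e-08) and Irf8 (adjusted p = 7.17e-08). Cxcl10, with 1 and 0 counts against 10 and 36, had a pooled ratio to light of 0.0198 with a 95% counting interval of 0.000492 to 0.116, and did not pass in edgeR (adjusted p = 0.0709). The microglia list had a median of -3.57, also with 0 passing. This median includes Fcrls, which had 5 and 6 counts with minocycline and passed the filter through the light libraries alone. This comparison and the one with control share the light-exposed libraries, so that a high value in light 2 enters both with opposite signs.

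**Figure D4:**
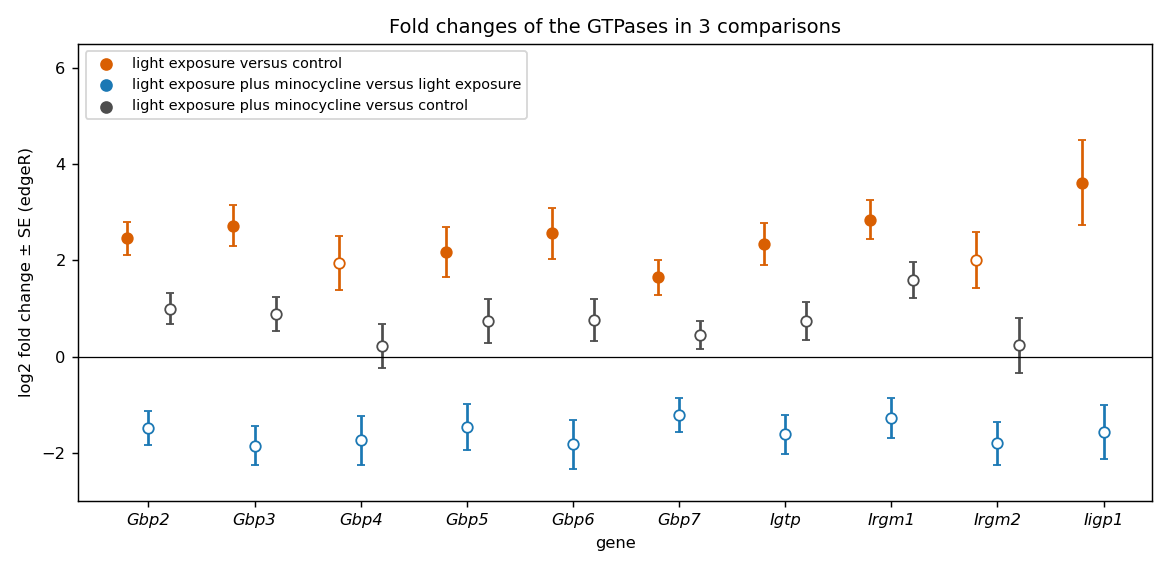
Log2 fold change with its standard error for the 10 GTPases in the comparison of light exposure with control (orange), of light exposure plus minocycline with light exposure (blue) and of light exposure plus minocycline with control (gray). Filled symbols passed at an adjusted p under 0.05; 8 orange symbols are filled and no blue or gray one, and Iigp1 has no gray value because it was not tested there.

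Light exposure plus minocycline versus control addressed whether the treated retinas differed from untreated ones. Of the 10 GTPases, 9 were tested and 0 passed in edgeR, with 0.162% of 14181 tested genes passing in the higher direction. DESeq2 called 0 as well (0.9% of the genes it fitted). Log2 fold changes were positive for 9 of 9, from 0.22 ± 0.46 for Gbp4 to 1.58 ± 0.37 for Irgm1, with a median of 0.74 against 0.021 over all genes. At an unadjusted p under 0.05, 3 were higher, Gbp2, Gbp3 and Irgm1, against 5.39% of all tested genes. Both minocycline libraries lay above both controls for 8 of 10, all but Gbp4 and Irgm2, in which control 1 was above both, and for 15.9% of all tested genes.

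Irgm1 had the largest difference among the 9 tested genes, with 103 and 130 counts against 31 and 24 (adjusted p = 0.211, edgeR). It was also the gene that passed without a filter on low counts (adjusted p = 0.0265) and without minocycline A (adjusted p = 0.0012), with adjusted p values of 0.113 to 1.00 under the other alternatives, leaving out libraries included. Gbp2 was at 1.00 ± 0.33 (adjusted p = 0.489) and Gbp3 at 0.89 ± 0.35 (adjusted p = 0.644). For Iigp1, 13 counts over both minocycline libraries against 2 over both controls gave a ratio of 4.39, with a 95% counting interval of 0.994 to 40.1. Leaving out control 2 turned Gbp4 to -0.24 and Irgm2 to -0.42, since control 1 held most of the control counts of both genes. Corneal epithelium markers, at a mean of 246 CPM with minocycline against 6.35 CPM in controls, moved with this comparison, and their part in the GTPase values was not tested.

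Relative levels within the family were compared per kilobase of exon, since the genes differ in length. In controls Gbp2 had the highest level, at 1.13 CPM per kb, and its 2 libraries lay above both of every other gene. It was followed by Gbp7 (0.876), Gbp3 (0.770) and Igtp (0.683 CPM per kb), of which each overlapped its neighbor in the 2 libraries. Irgm1 (0.335), Irgm2 (0.269), Gbp4 (0.213) and Gbp6 (0.142 CPM per kb) came next, again with overlap between neighbors, and Gbp5 (0.0906) and Iigp1 (0.0122 CPM per kb) were lowest. After light the order of levels was Gbp2 (6.17), Gbp3 (5.05), Igtp (3.43), Gbp7 (2.72) and Irgm1 (2.40 CPM per kb), with overlap between neighbors throughout. Irgm2 was next (1.08), then Gbp6 (0.841), Gbp4 (0.811), Gbp5 (0.410) and Iigp1 (0.161 CPM per kb). Iigp1, the effector IRG, thus remained the least abundant in each group. With minocycline the first places were held by Gbp2 (2.18), Gbp3 (1.38), Gbp7 (1.15), Igtp (1.10) and Irgm1 (0.979 CPM per kb).

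Shares of the summed CPM of the 10 genes showed how the make-up of the family varied. Gbp7 made up 26.6% and 29.5% of the sum in the controls, 17.9% and 17.4% after light, and 23.1% and 20.3% with minocycline. Irgm1 accounted for 10.7% and 11.4% in the controls, 16.2% and 16.0% after light, and 16.0% and 21.5% with minocycline. In both genes the control values did not overlap those of the other libraries. Gbp3 held 14.5% and 13.8% in the controls, 18.2% and 19.4% after light, and 15.3% and 14.9% with minocycline. Gbp2 ranged from 14.8% to 19.4% and Gbp5 from 2.97% to 3.81% over the 6 libraries.

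Microglia carry part of the interferon response of the retina, so the summed GTPase level was set against that of the 12 microglia markers in each library. The 10 genes summed to 20.6 and 14.8 CPM in the controls, 55.7 and 118 CPM in light 1 and 2, and 27.9 and 32.1 CPM in minocycline A and B. As a percent of the summed microglia markers this was 33.6% and 21.4% in the controls, 12.2% and 8.24% after light, and 23.02% and 55.1% with minocycline. Relative to microglia transcripts, GTPase transcripts were thus lower after light in both libraries, with a difference in mean log2 percent of -1.42 against control, and higher with minocycline, at 1.83 against light. With 8 pan-leukocyte markers as the reference these differences were -1.40 and 1.91. They are descriptions with no test.

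The minocycline libraries differed in this respect. Microglia markers were higher in A than in B, with a median ratio of 2.41 and a range of 0.685 for Fcrls to 3.09 for C1qc, whereas the 10 GTPases had a median ratio of 0.876, from 0.651 for Irgm1 to 1.26 for Gbp4. In minocycline B the microglia sum of 58.2 CPM was below both controls, while the GTPase sum of 32.1 CPM was above both. Corneal epithelium markers were higher in B than in A, at 291 and 201 CPM. Between light 1 and light 2, in contrast, both sums rose in the same direction.

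**Figure D5:**
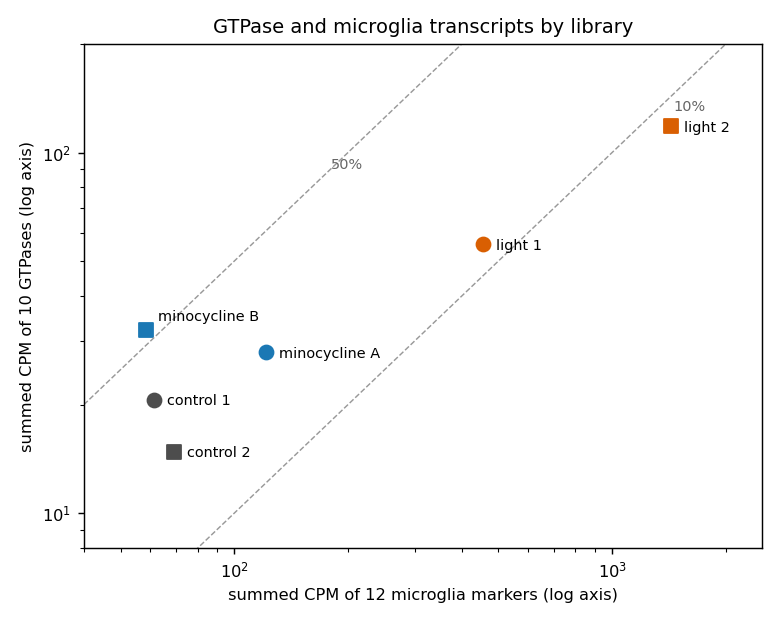
Summed CPM of the 10 GTPases (vertical, log axis) against summed CPM of 12 microglia markers (horizontal, log axis), 1 symbol per library, colored by group. Dashed lines mark where the GTPase sum is 10% and 50% of the microglia sum; light 2 lies below the 10% line at 8.24%, light 1 just above it at 12.2% and minocycline B above the 50% line at 55.1%.

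Genes with the pattern most like that of the GTPases were sought by Pearson's r between log2 CPM and the mean standardized profile of the 10 genes over the 6 libraries. The 10 highest of 14703 other genes were Ptplad2, Tgfb1, Ildr2, Ctsl, Gbp1, Scamp4, S100a13, Tagln2, Rbms2 and Tor4a, with r from 0.9950 to 0.9998. Gbp1, the only GTPase among these 10, ranked 5. These values are a description over 6 libraries that share their groups, and 132 genes had the same rank order of libraries as the profile. Ptplad2, for which 6 and 3 counts in the controls, 39 and 155 after light, and 17 and 16 with minocycline were found, ranked first. Tgfb1, encoding a transforming growth factor, had 13 and 8, then 54 and 170, then 31 and 27 counts in the same order. Ctsl, encoding a lysosomal protease, was more abundant, at 1720 and 1275, then 4662 and 10681, then 3979 and 3107 counts. Minocycline A and B lay between the controls and the light libraries in all 3 of these genes, as in 8 of the 10 GTPases. The 3 genes were picked for their likeness to the GTPase profile, so that this position follows from the choice.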

How the data were processed

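Retinal RNA of 6 mouse samples was sequenced from stranded mRNA libraries. The authors aligned single reads to mm10 with STAR in the RNA Express workflow, and deposited counts per gene. The data statement of the study describes normalized DESeq2 counts, but the values are whole numbers whose DESeq2-type size factors run from 0.800 to 1.29 rather than being equal, so they were analysed as unscaled counts. The gene annotation, tool versions and use of strand in counting are not given in the sources used here. Of the value columns, 0 were left unused. Pairs of groups were compared in edgeR 4.0.16 under R 4.3.3 (low counts removed by filterByExpr, TMM scaling, quasi-likelihood F test with robust estimation, Benjamini-Hochberg adjustment over all tested genes). Standard errors were derived from the F statistic, and p-values measure the spread between the libraries deposited. Alternatives are given below, including DESeq2 1.42.0, and the test was checked on simulated counts. Members and gene lists were chosen with earlier results of these data known. Genes named were the 10 members, the list of related GTPases, passing genes plus ligands and receptors of the further lists, B2m, Il18 and genes at or near 0 (chosen after their values were seen), and the 10 genes most like the members. Motifs and promoters came from RefSeq, and exon lengths and shared 50-base stretches from GENCODE M21 on GRCm38. A gene of the signalling list is not reported here.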

Additional observations from a re-analysis of the deposited data

How the results depend on the processing

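Over the alternatives, each GTPase kept its direction in light versus control and in minocycline versus light. In light versus control, leaving out 1 library at a time gave a median log2 fold change of 1.72 to 2.79. DESeq2 with shrunken fold changes gave 0 members higher with the fold cutoff, as were 0.4% of its fitted genes. For minocycline versus light the number lower was 4 with no filter, 2 with all 6 libraries in one fit and 8 with DESeq2 with or without shrunken fold changes, and 0 to 8 (0 to 5 with the cutoff) when 1 library was left out. For minocycline versus control it was 1 higher with no filter (1.01% of all tested genes) and 0 to 1 with 1 library left out, the 1 being without minocycline A (2.82% of all). Leaving out 1 library moved this comparison between -0.24 and 0.90 for Gbp4 and between -0.42 and 1.44 for Irgm2, negative without control 2. In light versus control, Ifngr1 and Ifnar1, both near 0, turned sign: Ifngr1 to -0.00934 with DESeq2 size factors, -0.00933 and -0.00840 with DESeq2 without and with shrunken fold changes, and between -0.14 (without control 2) and 0.15 when 1 library was left out, and Ifnar1 between -0.087 (without light 2) and 0.11. Of the other 5 lists, 21 of 43 tested genes were higher after light, against 7.52% of all tested genes. Among the 21, Gbp11, Aim2, Casp1, Casp4 and Pycard passed the filter on low counts through the light libraries alone. The number changed when 1 library was left out, and the cause was not tested. With a lone library in a group, the spread is that of the other group. With the replicate number as a block, 10 members were higher and 8 with the cutoff, as were 11.6% and 3.3% of all tested genes. The numbers do not pair the samples, as deviations of same-numbered libraries correlated at -0.011 over 14713 genes. No paired analysis was possible because of the shared heading in the comparisons with minocycline. Depth limits Iigp1 and Gbp11, with at most 2 counts in the controls.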
